A study of Mus musculus with 30 samples.

Results

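The 9 genes described here are known as markers of microglia at rest in the healthy brain: P2ry12, P2ry13, Gpr34, Adgrg1, Siglech, Fcrls, Tmem119, Olfml3 and Sall1. They were taken by name from the gene table, and 9 of its 54532 genes carry these names. Microglia from C57BL/6 mice were prepared by 5 protocols and sequenced in bulk, each after 4 h with HMGB1, a nuclear protein that acts as a danger signal once released, or without it (Control). Protocol 1C cells were shaken off mixed glial cultures of pups of postnatal days 0 to 3 after 21 days with GM-CSF at 0.5 ng/ml, Protocol 1A cells after 10 days with the same GM-CSF, and Protocol 1B cells after 10 days with GM-CSF at 0 ng/ml. Each of these cell suspensions pooled 5 pups, and the shaken-off cells adhered overnight in serum-free medium before treatment. Protocol 2 cells came from brains of mice aged 6 to 8 weeks, pooled by 3, and spent 7 days in culture. From the day after plating the medium held 100 ng/ml of both GM-CSF and M-CSF. The cells were then detached with trypsin, replated in serum-free medium and ready for treatment the following day. Protocol 3 cells came from dissociated brains of mice of the same age, were enriched with anti-CD11b beads and were treated at once, after 0 days of culture. They were in serum-free medium during the treatment, so their levels need not equal those in the brain. The HMGB1 concentration is given for Protocol 3 only, as 1 µg/ml. There were 3 libraries in each of the 10 groups, with 14151983 to 28564757 counts per library.

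Resident microglia enter the brain during embryonic life and hold a distinct expression program there, which depends on TGF-beta, CSF1R ligands and contact with the tissue around them. The program includes purine receptors that sense nucleotides from neurons, adhesion and lectin receptors, and the transcription factor SALL1, which keeps microglia apart from other macrophages. It is known to fade within hours to days once the cells leave the brain, and to fall during inflammation. Levels are given as CPM, the counts of a gene scaled to a common library total by TMM, which corrects for library composition, and as mean ± SD with n = 3. A gene is said to be higher or lower, or to rise or fall, where its p from the edgeR quasi-likelihood test, adjusted by the Benjamini-Hochberg method over all genes tested, was below 0.05.

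The labelled cell type was checked with 9 genes shared by microglia and other macrophages, such as Csf1r and Adgre1. All 9 averaged at least 1 CPM in every Control group, and their sum lay between 4090 and 7324 CPM in the Control libraries. Lists of other cell types moved with the protocols. The 10 markers of macrophages at the borders of the brain summed to 3154 to 3771 CPM in Protocol 1B Controls, above the 1798 to 2117 CPM in 1C, 1210 to 1346 CPM in 1A, 1631 to 1690 CPM in Protocol 2 and 495 to 665 CPM in Protocol 3. The 10 neutrophil markers summed to 417 to 865 CPM in Protocol 3 Controls, where 10 of 10 averaged at least 1 CPM, against 64.2 CPM or less in the cultured Controls. The 8 monocyte markers summed to 168 to 252 CPM in 1C Controls, 253 to 402 CPM in 1A, 6.08 to 8.51 CPM in 1B, 229 to 320 CPM in Protocol 2 and 74.6 to 149 CPM in Protocol 3. In bulk RNA, fewer cells of a type and less RNA per cell cannot be told apart, and the part of these other cells in the results was not tested.

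By position in the table, which matches GENCODE M21 on GRCm38, P2ry13 (chromosome 3, 59207892 to 59210882) and P2ry12 (59216272 to 59262871) are neighbours on the minus strand, and both lie inside Med12l on the plus strand. Exons of P2ry12 overlap exons of Med12l, and the strand setting of the counting was not given in the sources used here. Med12l itself averaged between 1.28 and 7.17 CPM in the Control groups. Fcrls (87250758 to 87263738) and Olfml3 (103722222 to 103738001) are on chromosome 3 too, Tmem119 on chromosome 5, Siglech on 7, Sall1 and Adgrg1 on 8. Gpr34 is on the X chromosome inside Cask, on the other strand, and their exons do not overlap.

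Promoters, here 250 bases before to 50 after the RefSeq start (GRCm38.p6), were found for 7 of the 9 genes. PU.1, the factor that all macrophages need, reads a core that is taken here as GAGGAA on either strand. The 7 genes have 10 promoters in that table. The core lay in 3 of 10, those of P2ry13, Fcrls and Siglech, and in 28.3% of all 32851 promoters. The 4 shown belong to the neighbouring purine receptors, which moved apart in these data, to Siglech, whose level differed most, and to Fcrls, which was lower with GM-CSF. Matches of 2 further motifs were seen and left out. Each sequence runs 5′ to 3′ along its gene, with the PU.1 core in capitals.
P2ry12: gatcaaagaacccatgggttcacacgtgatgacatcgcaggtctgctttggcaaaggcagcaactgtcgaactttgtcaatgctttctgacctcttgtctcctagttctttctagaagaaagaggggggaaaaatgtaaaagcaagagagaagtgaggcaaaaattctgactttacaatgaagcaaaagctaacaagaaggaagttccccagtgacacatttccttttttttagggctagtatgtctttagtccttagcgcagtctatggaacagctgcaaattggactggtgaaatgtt
P2ry13: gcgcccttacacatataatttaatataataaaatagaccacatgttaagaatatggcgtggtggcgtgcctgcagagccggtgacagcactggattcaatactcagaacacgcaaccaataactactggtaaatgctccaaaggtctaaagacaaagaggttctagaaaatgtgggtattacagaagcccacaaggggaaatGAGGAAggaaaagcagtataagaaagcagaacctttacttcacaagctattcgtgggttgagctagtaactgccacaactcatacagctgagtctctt
Fcrls: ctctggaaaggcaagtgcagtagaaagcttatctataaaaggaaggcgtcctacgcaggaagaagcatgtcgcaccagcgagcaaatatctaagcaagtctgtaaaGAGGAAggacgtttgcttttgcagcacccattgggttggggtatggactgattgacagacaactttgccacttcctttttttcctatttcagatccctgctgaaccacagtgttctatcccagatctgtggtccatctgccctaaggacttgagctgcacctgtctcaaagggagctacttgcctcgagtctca
Siglech: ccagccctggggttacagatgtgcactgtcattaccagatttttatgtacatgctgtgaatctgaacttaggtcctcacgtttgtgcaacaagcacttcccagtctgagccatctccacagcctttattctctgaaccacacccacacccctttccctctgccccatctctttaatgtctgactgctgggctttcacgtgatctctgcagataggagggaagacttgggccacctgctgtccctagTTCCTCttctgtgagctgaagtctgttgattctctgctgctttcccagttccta
They span chr3:59262936-59263235 (minus strand), chr3:59210833-59211132 (minus), chr3:87263475-87263774 (minus) and chr7:55767934-55768233 (plus), in that order. Counted from the start, the match lay at position -48 in P2ry13, -144 in Fcrls and -4 in Siglech, where the core is on the minus strand and the printed strand reads TTCCTC. The SMAD motif CAGAC, on either strand, was in 6 of the 10 promoters and 49.6% of all promoters, and the AP-1 motif TGANTCA in 1 of 10, one of Adgrg1, and 7.8% of all promoters. A match describes these letters only.

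Protocol 3 Controls, the acutely isolated adult cells, held the 9 genes at a summed 2072 ± 43.6 CPM. The sum was 133 ± 21.6 CPM in Protocol 1C Controls, 91.0 ± 16.0 CPM in 1A, 417 ± 51.0 CPM in 1B and 243 ± 18.6 CPM in Protocol 2. Fcrls carried much of it, and without Fcrls the order of the last pair turned, with 82.8 ± 11.6 CPM in 1B and 191 ± 19.9 CPM in Protocol 2. Per kilobase of the length given for each gene, Fcrls led in Protocol 3 Controls at 395 ± 19.2 CPM per kb, followed by Siglech at 132 ± 7.01 and P2ry12 at 74.2 ± 3.49. Adgrg1 (31.0 ± 0.573), Tmem119 (25.9 ± 9.09), Olfml3 (25.4 ± 2.45) and Gpr34 (25.3 ± 1.01) came next. Adgrg1 lay above Olfml3 and Gpr34 in every library, and the ranges of the other pairs among these 4 overlapped. Sall1 (10.2 ± 0.811) and P2ry13 (9.38 ± 2.52 CPM per kb) were the lowest of the 9 and overlapped each other. Fcrls stood at percentile 99.3 and P2ry13 at 73.0 of 14312 protein-coding genes ranked by this measure. The length given need not be that of the transcript expressed, and the order of the genes depends on it.

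**Figure D1:**
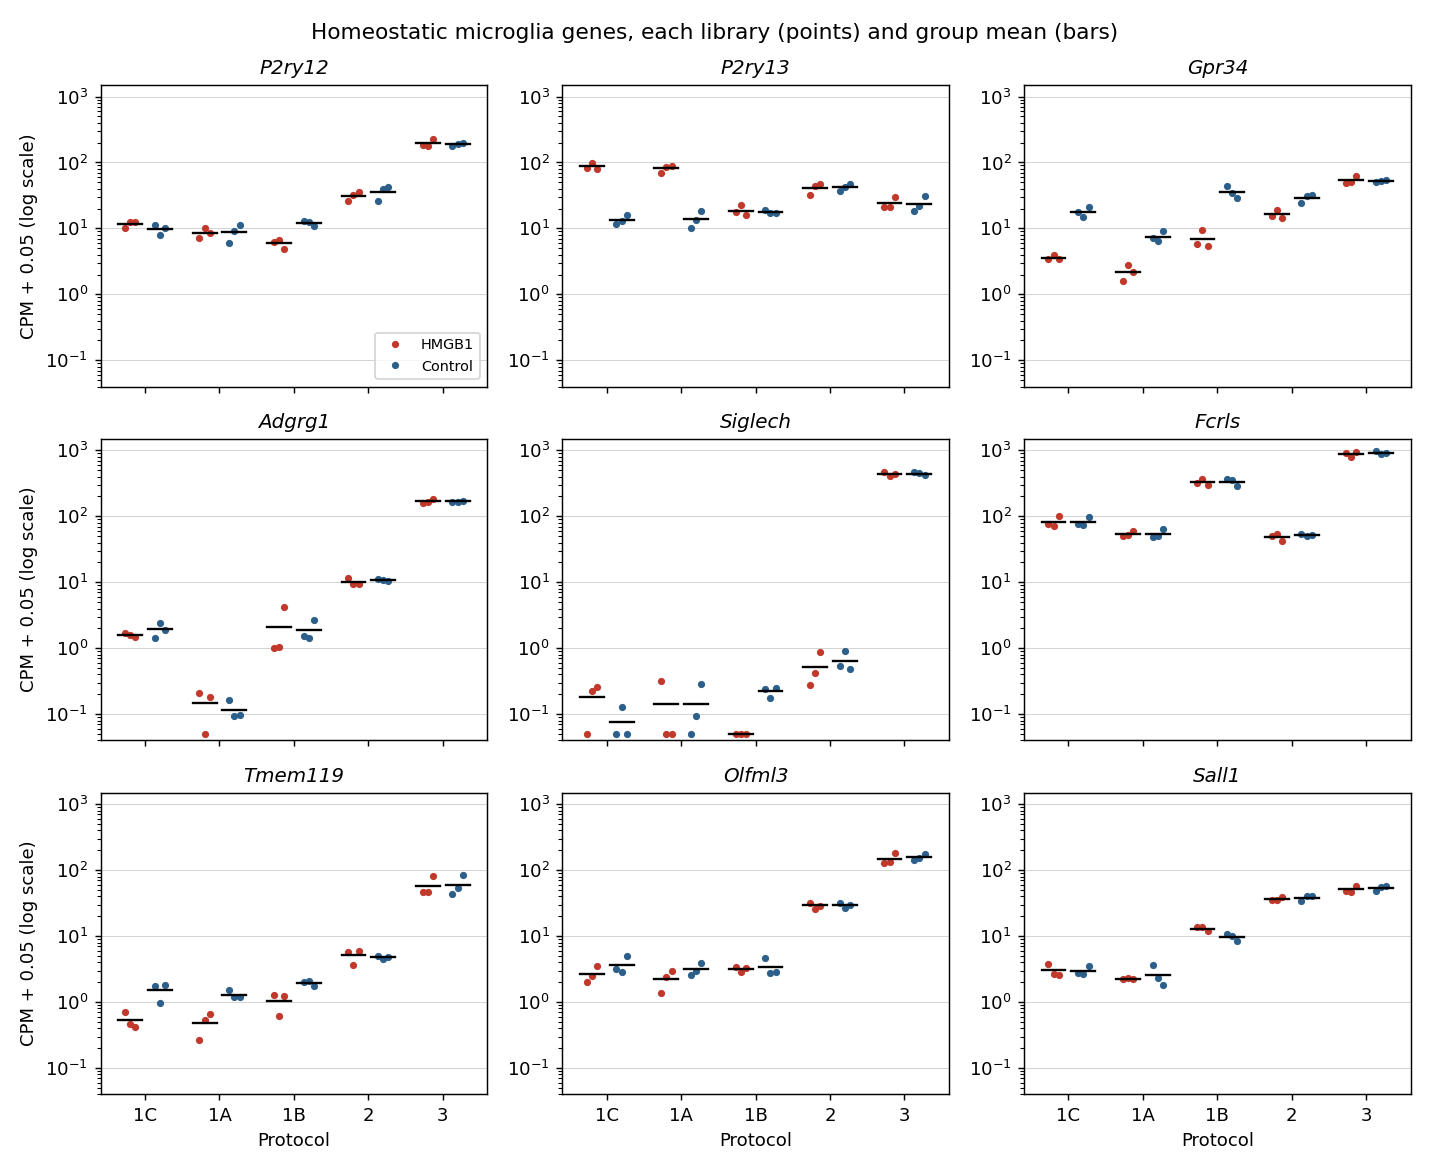
Level of the 9 genes in each of the 30 libraries, as CPM + 0.05 on a log axis, by protocol, with HMGB1 libraries in red left of Control libraries in blue and black bars at the group mean. Siglech sits between 420 and 467 CPM in Protocol 3 Controls and below 1 CPM in every cultured library, while P2ry13 is highest in the HMGB1 libraries of Protocols 1C and 1A.

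The Control groups show how the signature stood in cultured cells beside acutely isolated cells. Taking Protocol 1 as the mean of 1C, 1A and 1B, 9 of 9 genes were lower than in Protocol 3. Of all 17033 genes tested, 42.9% were called lower and 37.3% higher. The median log2 fold change of the 9 was -4.29, which is the value of P2ry12, against -0.12 for all genes, and 8 of 9 lay wholly below Protocol 3, as did 33.8% of all genes. In Protocol 2 against Protocol 3, 8 of 9 were lower and 1, P2ry13, was higher, with 37.2% of genes called lower and 40.1% higher. The median was -2.50 for the 9 genes and 0.08 for all. Age, time in culture, growth factors and the way of isolation differ together between Protocols 1 and 3, and all of these but age between 2 and 3, so they cannot be told apart here. RNA quality differed as well: the paper reports lower RNA yield and integrity for the acutely isolated cells than for the cultured adult cells. The part of RNA quality in the differences from the acutely isolated cells was not tested.

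Among the receptors, P2ry12, the ADP receptor that guides microglial processes to injured cells, is a hallmark of the resting state. Its levels were 11.2, 7.93 and 10.04 CPM in Protocol 1C Controls, 5.95, 9.02 and 11.2 CPM in 1A, 12.8, 12.6 and 10.8 CPM in 1B and 25.7, 40.02 and 41.9 CPM in Protocol 2. In Protocol 3 Controls it had 179, 194 and 195 CPM. The cultured libraries stayed below every Protocol 3 library, with log2 fold changes of -4.29 for Protocol 1 (adjusted p = 8.22e-12) and -2.48 for Protocol 2 (SE 0.203, adjusted p = 1.06e-07).

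P2ry13, a second ADP receptor and the direct neighbour of P2ry12 in the genome, behaved otherwise. It had 11.8, 12.8 and 15.8 CPM in Protocol 1C Controls, 9.97, 13.4 and 18.1 CPM in 1A, 18.9, 17.2 and 17.0 CPM in 1B and 37.0, 42.6 and 47.2 CPM in Protocol 2. Protocol 3 Controls had 18.4, 21.9 and 30.8 CPM. Protocol 2 lay wholly above Protocol 3 (log2 fold change 0.74, SE 0.194, adjusted p = 0.00274). Protocol 1 overlapped Protocol 3 in a single 1B library and was lower on average (-0.73, SE 0.158, adjusted p = 5.78e-04).

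Gpr34, a receptor for lysophosphatidylserine, kept more of its level than most. It had 17.5, 14.6 and 20.8 CPM in Protocol 1C Controls, 6.99, 6.46 and 8.99 CPM in 1A, 44.7, 34.0 and 29.4 CPM in 1B and 24.01, 30.8 and 32.5 CPM in Protocol 2. In Protocol 3 Controls the values were 50.9, 52.5 and 55.1 CPM. The log2 fold changes were -1.71 for Protocol 1 (SE 0.117, adjusted p = 2.55e-10) and -0.95 for Protocol 2 (SE 0.151, adjusted p = 2.07e-05), and neither overlapped Protocol 3.

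Adgrg1, the adhesion receptor GPR56, is found on microglia of the embryonic yolk-sac lineage and on neural precursors. It was at 1.39, 2.40 and 1.86 CPM in Protocol 1C Controls, 0.112, 0.0433 and 0.0471 CPM in 1A, 1.46, 1.36 and 2.64 CPM in 1B and 11.1, 10.9 and 10.3 CPM in Protocol 2. In Protocol 3 Controls it stood at 166, 167 and 172 CPM. The 1A values rest on 5 counts in all, which put the pooled Protocol 3 level 2397 times higher (95% exact interval of the counts 1027 to 7385). The log2 fold changes were -8.09 for Protocol 1 (SE 0.125, adjusted p = 1.08e-20) and -4.05 for Protocol 2 (SE 0.139, adjusted p = 2.51e-15). The SE for Protocol 1 is too small for the 5 counts in 1A.

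Siglech, a sialic acid-binding lectin of microglia and plasmacytoid dendritic cells, was the gene with the largest difference among the 9. The 3 libraries each of Protocol 1C, 1A and 1B Controls held 19 Siglech counts together, 3 of the 9 libraries none, and Protocol 2 Controls held 13, 22 and 11 counts. Protocol 3 Controls had 9120, 9276 and 9870 counts, or 467, 449 and 420 CPM. The pooled Protocol 3 level was 4780 times that of Protocol 1 (95% exact interval 3061 to 7941) and 755 times that of Protocol 2 (566 to 1031), intervals that cover counting error only. Protocol 1C Controls alone had 2 counts, and the ratio there was 15174 with an interval of 4200 to 125304. The fitted log2 fold changes were -12.47 (SE 0.167, adjusted p = 1.76e-19) and -9.64 (SE 0.216, adjusted p = 3.25e-16), and the first depends on the prior count of the fit. The SE of the first is smaller than the counting error of its 19 counts allows. Of 8 markers of plasmacytoid dendritic cells, 5 averaged at least 1 CPM in Protocol 3 Controls and the list summed to 133 to 148 CPM, mostly Tcf4 with a mean of 132 CPM, against 54.2 to 83.7 CPM in the cultured Controls.

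Fcrls, an Fc receptor-like scavenger receptor that in mice is nearly restricted to microglia and some other macrophages, split the cultures. It had 75.3, 73.4 and 99.3 CPM in Protocol 1C Controls, 47.7, 50.5 and 63.7 CPM in 1A, 362, 353 and 287 CPM in 1B and 54.0, 50.9 and 51.9 CPM in Protocol 2. Its level in Protocol 3 Controls was 968, 878 and 922 CPM. The cultures grown without added GM-CSF were far above the other cultured groups and still below Protocol 3. The log2 fold changes were -3.07 for Protocol 1 (SE 0.0842, adjusted p = 5.81e-17) and -4.23 for Protocol 2 (SE 0.130, adjusted p = 7.20e-16).

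Tmem119, a membrane protein used to tell microglia from infiltrating macrophages, was nearly gone from the neonatal cultures. Levels were 1.71, 0.903 and 1.74 CPM in Protocol 1C Controls, 1.45, 1.13 and 1.13 CPM in 1A, 1.98, 2.06 and 1.73 CPM in 1B and 4.93, 4.44 and 4.73 CPM in Protocol 2. Protocol 3 Controls had 43.1, 53.4 and 83.6 CPM, the widest spread of the 9 genes in that group relative to the mean, and replicate 3 was also the highest of the Protocol 3 HMGB1 libraries (46.5, 46.6 and 80.3 CPM). No cultured library came near this range, and the log2 fold changes were -5.36 for Protocol 1 (SE 0.164, adjusted p = 3.87e-15) and -3.76 for Protocol 2 (SE 0.220, adjusted p = 4.56e-11).

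Olfml3, a secreted olfactomedin-like protein and a known target of TGF-beta in microglia, had 3.10, 2.83 and 4.96 CPM in Protocol 1C Controls, 2.57, 2.86 and 3.91 CPM in 1A, 4.57, 2.73 and 2.79 CPM in 1B and 31.5, 26.9 and 30.0 CPM in Protocol 2. Against these, Protocol 3 Controls had 144, 152 and 173 CPM. The 3 sets, neonatal cultures, adult cultures and acutely isolated cells, did not overlap. Log2 fold changes against Protocol 3 were -5.60 for Protocol 1 (SE 0.133, adjusted p = 2.47e-15) and -2.50 for Protocol 2 (SE 0.167, adjusted p = 1.54e-09). The 9 endothelial markers, listed because Olfml3 is also known from vessel cells, ran in the same order, at 15.3 to 59.1 CPM in the Protocol 1 Controls, 68.8 to 72.7 CPM in Protocol 2 and 139 to 158 CPM in Protocol 3, and their part in the Olfml3 values was not tested.

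Sall1, the transcription factor of the set, nearly kept its level in the adult cultures. It had 2.72, 2.63 and 3.47 CPM in Protocol 1C Controls, 3.57, 2.30 and 1.74 CPM in 1A, 10.9, 10.03 and 8.33 CPM in 1B and 33.9, 40.7 and 39.97 CPM in Protocol 2. Protocol 3 Controls had 48.6, 55.3 and 56.6 CPM. Protocol 2 lay below Protocol 3 by a log2 fold change of -0.57 (SE 0.143, adjusted p = 0.00132), and Protocol 1 by -3.72 (SE 0.117, adjusted p = 2.93e-16).

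**Figure D2:**
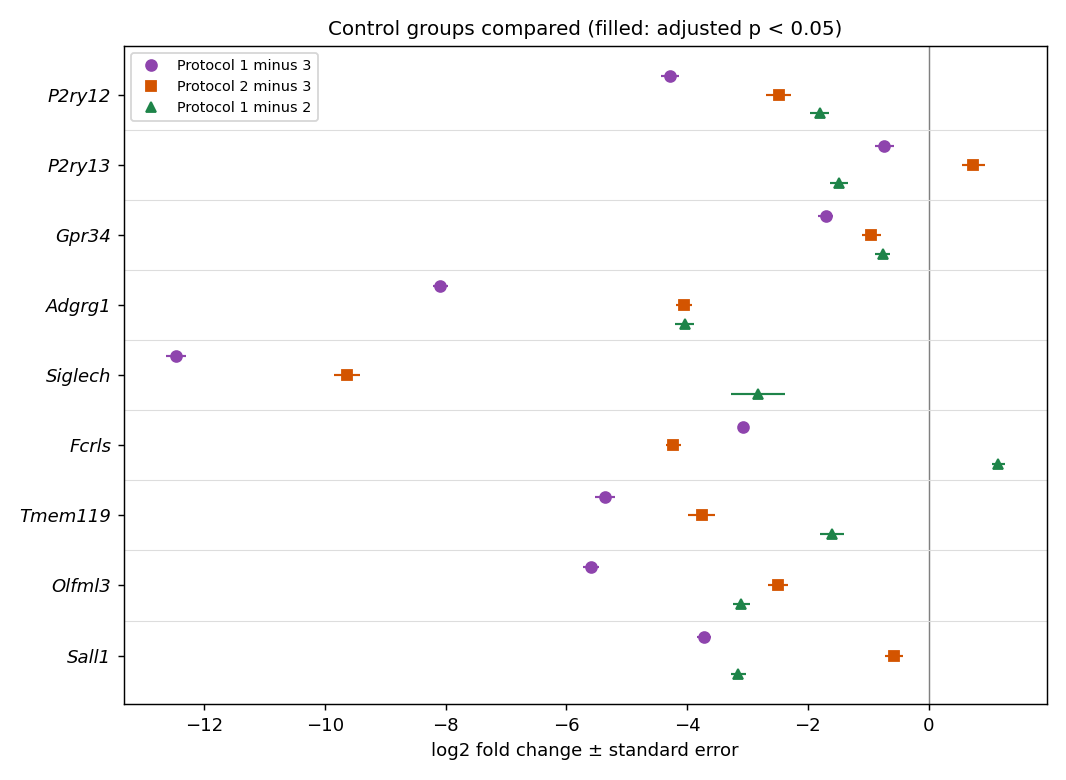
Log2 fold change with its standard error for each gene between Control groups, with Protocol 1 taken as the mean of 1C, 1A and 1B, and symbols filled where the adjusted p was below 0.05. Error bars are too short for the few counts of Siglech in Protocol 1 minus 3 and of Adgrg1 wherever Protocol 1 enters. Siglech lies farthest left at -12.47 for Protocol 1 minus 3, P2ry13 is right of 0 for Protocol 2 minus 3 (0.74), and Fcrls is right of 0 for Protocol 1 minus 2 (1.16).

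Neonatal and adult cultures were then set against each other. Protocol 1 Controls had 8 of the 9 genes called lower than Protocol 2 and 1 called higher, while 30.7% of genes were called lower and 24.6% higher. The lower ones were led by Adgrg1 (log2 fold change -4.04, SE 0.157, adjusted p = 2.86e-13), Sall1 (-3.15), Olfml3 (-3.10) and Siglech (-2.83), followed by P2ry12 (-1.80), Tmem119 (-1.60), P2ry13 (-1.48) and on average Gpr34 (-0.76, adjusted p = 4.69e-05). The SE of Adgrg1 is again too small for its 5 counts in 1A. Fcrls was higher, with a log2 fold change of 1.16 (SE 0.101, adjusted p = 1.69e-08), but overlapped Protocol 2 in 1A, and Gpr34 overlapped it in 1B. With 1A alone as Protocol 1 the Fcrls value was 0.06 (adjusted p = 0.698). Mouse age, medium and isolation differ together in this comparison.

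Among the neonatal cultures, 1C was set against 1A, which share the GM-CSF dose and differ by 21 against 10 days. Of the 9 genes, 3 were higher in 1C Controls and 0 lower, with 13.1% of genes called higher and 7.91% lower. Adgrg1 was higher by a log2 fold change of 4.68 (SE 0.411, adjusted p = 2.25e-07), with 132 counts in the 3 libraries of 1C and 5 counts in those of 1A. On 5 counts this SE is too small. Gpr34 was higher by 1.26 (SE 0.168, adjusted p = 4.38e-05) and Fcrls by 0.63 (SE 0.116, adjusted p = 6.46e-04). None of the 3 overlapped, where 19.2% of all genes lay wholly above 1A and 15.2% wholly below. The remaining 6 members lay between -1.36 for Siglech, on 2 against 6 counts, and 0.25 for Olfml3.

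The border macrophage list had 1798 to 2117 CPM in 1C and 1210 to 1346 CPM in 1A, without overlap, with 5 of 10 markers called higher and 2 lower, and its part in the Fcrls and Gpr34 values was not tested.

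Adgrg1 is known from precursors of oligodendrocytes as well, and markers of that lineage moved in the same comparison, though not all in the same direction. All 10 averaged at least 1 CPM in 1C Controls, against 3 of 10 in 1A, where 3 of 10 had no count in any library. Olig1 had 129, 119 and 163 counts in 1C Controls, against 0, 2 and 1 counts in 1A, and Olig2 had 63, 125 and 79 counts against 0, 8 and 1. Cspg4, also of this list, went the other way, with 137, 165 and 139 counts in 1C Controls against 544, 585 and 519 in 1A. The summed list was at 119 to 206 CPM in 1C and 107 to 112 CPM in 1A, and fibroblast and mural markers at 44.5 to 96.7 CPM in 1C and 3.25 to 5.74 CPM in 1A. Their part in the Adgrg1 values was not tested.

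Added GM-CSF was compared by 1A against 1B, both at 10 days. Here 4 of 9 genes were lower with GM-CSF and 0 higher, with 18.2% of genes called lower and 12.6% higher. Adgrg1 was lower by a log2 fold change of -4.61 (SE 0.420, adjusted p = 9.55e-08), Fcrls by -2.67 (SE 0.122, adjusted p = 1.47e-11), Gpr34 by -2.31 (SE 0.167, adjusted p = 1.50e-08) and Sall1 by -1.95 (SE 0.184, adjusted p = 1.46e-07), and none of these overlapped. For Adgrg1 the SE is too small for its 5 counts in 1A. Tmem119 did not overlap either, though not called, and 24% of all genes lay wholly below 1B and 21.1% wholly above. P2ry12 (-0.52, adjusted p = 0.111), P2ry13 (-0.40, adjusted p = 0.159) and Tmem119 (-0.67, adjusted p = 0.121) did not pass, nor did Siglech (-0.99, adjusted p = 0.385) and Olfml3 (-0.16, adjusted p = 0.678). Without 1A Control replicate 3, which had the highest P2ry12 and P2ry13 of its group, 7 of 9 passed. The border macrophage list was lower in 1A, at 1210 to 1346 CPM, than in 1B, at 3154 to 3771 CPM. The oligodendrocyte list had 3 of 10 markers at 1 CPM or more in 1A and 8 of 10 in 1B. Its sum went the other way, at 107 to 112 CPM in 1A and 83.7 to 102 CPM in 1B. Monocyte markers moved opposite to the border macrophage list and by more, at 253 to 402 CPM in 1A and 6.08 to 8.51 CPM in 1B. Of these markers 7 of 8 were called higher, with a median log2 fold change of 5.34. Neutrophil markers had 44.3 to 61.8 CPM in 1A and 2.40 to 4.57 CPM in 1B. The part of these cells in the results was not tested.

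**Figure D3:**
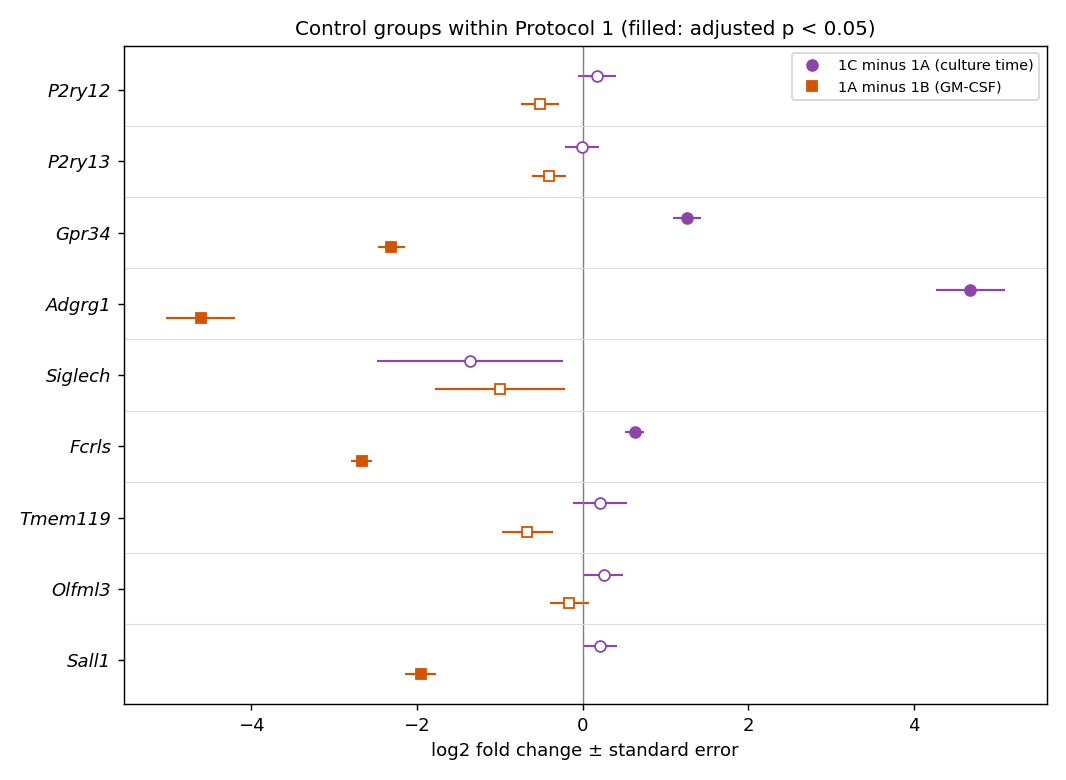
Log2 fold change with its standard error between Control groups of the neonatal cultures, for 1C minus 1A (21 against 10 days) and 1A minus 1B (GM-CSF), with symbols filled where the adjusted p was below 0.05. The error bars of Adgrg1 are too short for its 5 counts in 1A. Adgrg1 lies at 4.68 and -4.61, and Gpr34 and Fcrls are the other genes filled in both comparisons.

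HMGB1 was set against Control within each protocol to see which of the 9 genes respond to a danger signal. In Protocols 1C and 1A the same 3 genes were called: P2ry13 rose and Gpr34 and Tmem119 fell. In 1C, 8 of 9 genes had enough counts for the test, and of all genes 28.4% were called higher and 31.8% lower. In 1A, 7 of 9 were tested, with 29.7% called higher and 31.6% lower. In 1B, 8 of 9 were tested and 4 called, Sall1 up and Gpr34, P2ry12 and Tmem119 down, with 29.8% of genes called higher and 32% lower. The share of the 9 genes called was not above that of all genes in 1C, 1A or 1B. Marker lists of other cells moved as well. Monocyte markers summed to 592 to 763 CPM with HMGB1, against 168 to 252 CPM in Control, in 1C, to 618 to 847 CPM against 253 to 402 CPM in 1A, and to 34.8 to 69.0 CPM against 6.08 to 8.51 CPM in 1B. Of the 8 monocyte markers, 4 were called higher and 1 lower in 1C, 3 and 1 in 1A, and 3 and 0 in 1B. Endothelial markers in 1C summed to 204 to 305 CPM with HMGB1, against 44.0 to 59.1 CPM in Control. In 1A they summed to 68.5 to 109 CPM against 28.3 to 49.5 CPM, and in 1B to 41.1 to 72.0 CPM against 15.3 to 19.3 CPM. With HMGB1, 3 of the 9 endothelial markers averaged at least 1 CPM in 1C, 2 in 1A and 3 in 1B, so few genes carried these sums. The summed markers shared by microglia and macrophages were 6244 to 6772 CPM with HMGB1 and 4090 to 5194 CPM in Control over these protocols, and the part of any of these lists in the responses was not tested. The genes that were not tested were Siglech in 1C, 1A and 1B and Adgrg1 in 1A.

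P2ry13 had 82.7, 98.8 and 79.6 CPM in 1C HMGB1 libraries, against 11.8, 12.8 and 15.8 CPM in 1C Controls, a log2 fold change of 2.69 (SE 0.128, adjusted p = 9.31e-09). In 1A it had 69.6, 86.2 and 89.1 CPM with HMGB1, against 9.97, 13.4 and 18.1 CPM in Control (2.55, SE 0.236, adjusted p = 3.65e-04). In 1B, without added GM-CSF, the values were 17.9, 22.3 and 15.7 CPM with HMGB1, against 18.9, 17.2 and 17.0 CPM in Control, a log2 fold change of 0.07 (SE 0.131, adjusted p = 0.652). HMGB1 libraries of 1C and 1A stood wholly above their Controls, while those of 1B overlapped theirs. The response differed between 1A and 1B by 2.51 (SE 0.305, adjusted p = 9.03e-06), the 1 of 9 genes called in that comparison, where 6.9% of genes were. Besides P2ry12, given next, the other members lay between -0.62 for Sall1 (adjusted p = 0.171) and 5.04 for Siglech (adjusted p = 0.310), the last on few counts.

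Its neighbour P2ry12 fell in 1B and was not called in the other protocols. It had 6.12, 6.62 and 4.87 CPM in 1B HMGB1 libraries, against 12.8, 12.6 and 10.8 CPM in 1B Controls (log2 fold change -1.04, SE 0.156, adjusted p = 1.67e-04), with no overlap. In 1C the values were 10.2, 12.5 and 12.4 CPM with HMGB1, against 11.2, 7.93 and 10.04 CPM in Control, and in 1A 6.995, 9.93 and 8.57 CPM against 5.95, 9.02 and 11.2 CPM. Both overlapped, with log2 fold changes of 0.27 (adjusted p = 0.177) and -0.05 (adjusted p = 0.854). The difference between the responses of 1A and 1B was 1.04 (SE 0.319, adjusted p = 0.0518), short of the threshold, and it was past it with the replicate number as a block (1.04, adjusted p = 8.85e-04). Among related receptors, P2ry6, a UDP receptor that triggers uptake, fell in 1C (-2.33, adjusted p = 2.87e-09), 1A (-2.44) and 1B (-1.91), and P2ry14, the receptor for UDP-glucose, rose in 1C (2.34, adjusted p = 1.43e-08).

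Gpr34 fell in each cultured protocol. It had 3.38, 3.97 and 3.34 CPM in 1C HMGB1 libraries, against 17.5, 14.6 and 20.8 CPM in Control (log2 fold change -2.30, SE 0.176, adjusted p = 4.57e-07). In 1A it had 1.52, 2.73 and 2.14 CPM with HMGB1, against 6.99, 6.46 and 8.99 CPM in Control (-1.83, SE 0.230, adjusted p = 1.02e-05). In 1B the values were 5.83, 9.46 and 5.33 CPM with HMGB1, against 44.7, 34.0 and 29.4 CPM in Control (-2.40, SE 0.247, adjusted p = 8.99e-05). None of these overlapped.

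In Protocol 2, Gpr34 was the 1 of 9 genes called, where 0.283% of genes were called lower. Its levels were 15.5, 19.3 and 14.4 CPM with HMGB1, against 24.01, 30.8 and 32.5 CPM in Control, a log2 fold change of -0.83 (SE 0.139, adjusted p = 0.0163) with no overlap. The call was lost without Control replicate 2 (adjusted p = 0.123) or 3 (0.0845) and without HMGB1 replicate 1 (0.0519) or 3 (0.0623), while the fold change stayed between -0.98 and -0.74 in the 12 alternatives. The other 8 genes lay between -0.32 for Siglech (adjusted p = 0.960) and 0.09 for Tmem119 (adjusted p = 0.966), none called.

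Tmem119 had 0.668, 0.408 and 0.371 CPM in 1C HMGB1 libraries, against 1.71, 0.903 and 1.74 CPM in Control (log2 fold change -1.54, SE 0.446, adjusted p = 0.0106). In 1A it had 0.217, 0.487 and 0.603 CPM with HMGB1, against 1.45, 1.13 and 1.13 CPM in Control (-1.54, SE 0.459, adjusted p = 0.00982). These levels rest on few reads, 29 counts in the 3 HMGB1 libraries of 1C and 23 in those of 1A. In 1B the values were 1.24, 0.556 and 1.17 CPM with HMGB1, against 1.98, 2.06 and 1.73 CPM in Control (-0.95, SE 0.375, adjusted p = 0.0467), and that call was lost in 9 of 12 alternatives, with adjusted p between 0.0357 and 0.130.

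Sall1 rose slightly in 1B, with 13.5, 13.6 and 11.8 CPM in HMGB1 libraries, against 10.9, 10.03 and 8.33 CPM in Control (log2 fold change 0.41, SE 0.135, adjusted p = 0.0220) and no overlap. The call was lost without Control replicate 3 (adjusted p = 0.0841), HMGB1 replicate 1 (0.0504) or HMGB1 replicate 2 (0.0722). Its log2 fold changes were 0.03 in 1C (adjusted p = 0.939) and -0.23 in 1A (adjusted p = 0.528).

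The other members were not called in the neonatal cultures. Fcrls had log2 fold changes of 0.01 in 1C, -0.03 in 1A and -0.02 in 1B, with 95% intervals no wider than -0.30 to 0.31. Olfml3 was at -0.46 in 1C (adjusted p = 0.211), -0.52 in 1A (0.157) and -0.09 in 1B (0.785). Adgrg1 was at -0.30 in 1C (adjusted p = 0.440). In 1B it had 0.948, 0.989 and 4.16 CPM with HMGB1, against 1.46, 1.36 and 2.64 CPM in Control. Replicate 3 was the highest in both, and the log2 fold change of 0.22 (adjusted p = 0.765) was -0.89 without HMGB1 replicate 3 (adjusted p = 0.123). The neuron and astrocyte lists were also highest in that HMGB1 library, at 8.74 and 92.5 CPM, against 2.78 to 3.13 and 50.1 to 74.4 CPM in the other 1B HMGB1 libraries. Other lists were not. The oligodendrocyte list had 75.8, 34.0 and 69.0 CPM in replicates 1, 2 and 3. The endothelial and monocyte lists were highest in replicate 2, at 72.0 and 69.0 CPM. The part of these cells in the Adgrg1 values was not tested. Siglech had 4, 3 and 4 counts in 1B Controls and 0, 0 and 0 with HMGB1, where the floor of 3 counts over the group is 0.0556 CPM and puts the Protocol 3 HMGB1 level at least 7985-fold higher.

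**Figure D4:**
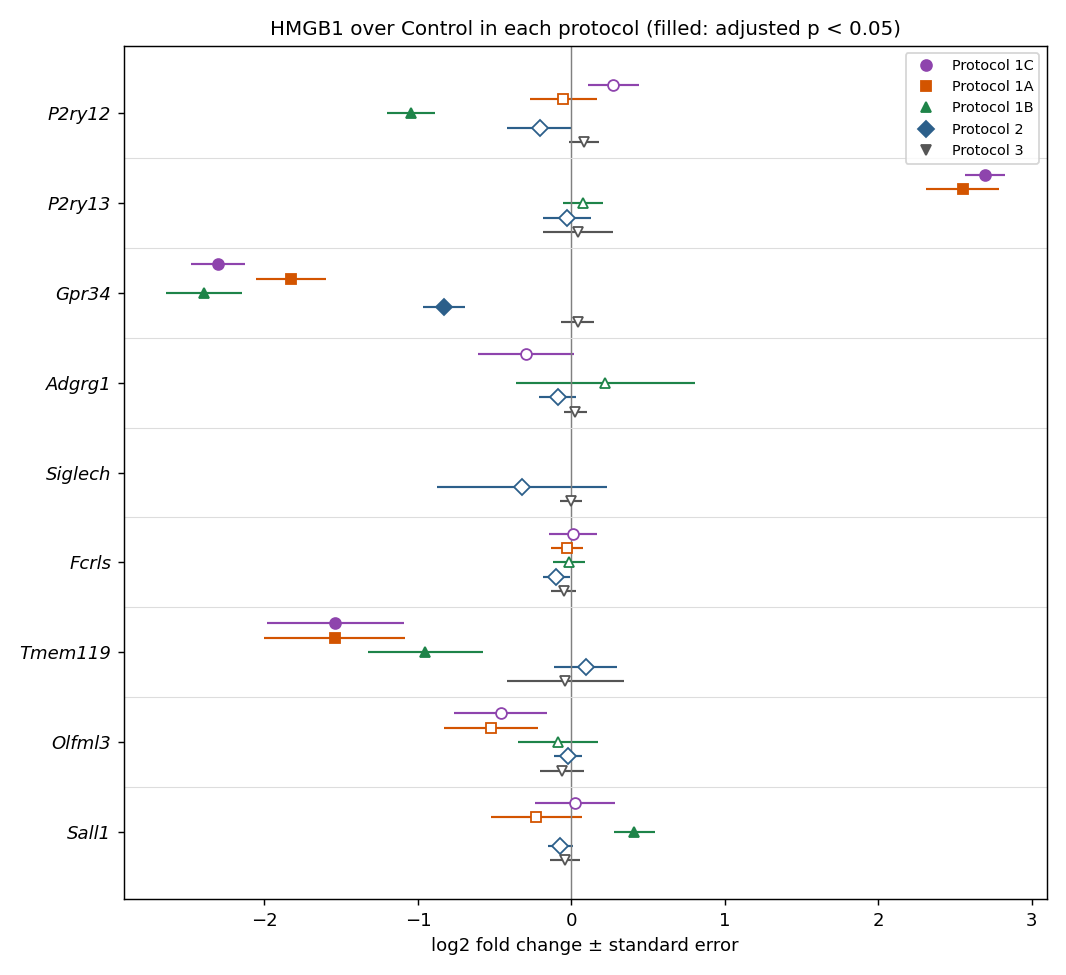
Log2 fold change of HMGB1 over Control with its standard error for each gene and protocol, with symbols filled where the adjusted p was below 0.05 and no symbol where counts were too low for the test. P2ry13 lies at 2.69 and 2.55 in 1C and 1A and near 0 elsewhere, and Gpr34 lies left of 0 in the 4 cultured protocols.

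In the acutely isolated Protocol 3 cells, 0 of 9 genes were called by edgeR, 0 had an unadjusted p below 0.05, and DESeq2 called 0, where 0.123% of all genes were called by edgeR. Log2 fold changes lay between -0.06 for Olfml3 and 0.08 for P2ry12. Siglech, for example, had 467, 413 and 440 CPM with HMGB1, against 467, 449 and 420 CPM in Control, and Gpr34 had 48.1, 49.9 and 63.0 CPM against 50.9, 52.5 and 55.1 CPM. The 95% intervals ran from -0.17 to 0.25 for Gpr34 and from -0.79 to 0.71 for Tmem119.

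The differences between responses were tested in a fit of all 30 libraries. Between Protocol 1 and Protocol 3, 3 of 9 genes differed, where 42.7% of genes did: P2ry13 (1.75, SE 0.247, adjusted p = 2.97e-06), Gpr34 (-2.19, SE 0.222, adjusted p = 5.26e-09) and Tmem119 (-1.28, adjusted p = 0.00409). The other 6 lay between -0.97 for Siglech and 0.13 for Sall1. With a replicate block P2ry12 passed too (-0.32, adjusted p = 0.0378). Between Protocol 1 and Protocol 2 the same 3 differed, where 43.6% of genes did, by 1.80 for P2ry13 (adjusted p = 1.05e-06), -1.34 for Gpr34 (1.81e-05) and -1.43 for Tmem119 (0.00289), and with a replicate block Olfml3 as well (-0.33, adjusted p = 0.0276). The other 6 lay between -0.67 for Siglech and 0.22 for Adgrg1. These comparisons share the Protocol 1 libraries. Between Protocols 2 and 3, 0 of 9 were called by edgeR or DESeq2, where 0.368% of genes were called, and 1 of 9, Gpr34, had an unadjusted p below 0.05 (-0.85, adjusted p = 0.314), with the others between -0.30 for Siglech and 0.16 for Tmem119. The fall of Gpr34 in Protocol 2 is thus not shown to differ from the value in Protocol 3. Between 1C and 1A, 0 of 9 differed by edgeR or DESeq2 and 0 had an unadjusted p below 0.05, where 14% of genes differed, with values between -0.69 for Adgrg1 and 1.72 for Siglech, both on few counts.

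After HMGB1, 8 of 9 genes were lower in the Protocol 1 libraries than in those of Protocol 3, where 40.7% of genes were called lower and 38.7% higher. Log2 fold changes were -13.35 for Siglech, which depends on the prior count, -7.92 for Adgrg1, -6.61 for Tmem119, -5.84 for Olfml3, -4.59 for P2ry12, -3.86 for Gpr34, -3.55 for Sall1 and -2.97 for Fcrls. P2ry13 was higher on average (log2 fold change 1.05, SE 0.162, adjusted p = 3.65e-05), with 1C and 1A above every Protocol 3 HMGB1 library (20.97, 21.3 and 30.3 CPM) and 1B overlapping them. In Protocol 2, 8 of 9 were lower and P2ry13 was higher (0.70, SE 0.186, adjusted p = 0.00346), where 37.2% of genes were called lower and 41.2% higher. The lower ones lay between -9.92 for Siglech and -0.57 for Sall1, with Fcrls at -4.24, Adgrg1 at -4.13, Tmem119 at -3.60, P2ry12 at -2.74, Olfml3 at -2.42 and Gpr34 at -1.79. The HMGB1 and Control comparisons share no library, though the same cell preparations may have given both.

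Across the 30 libraries the members did not form a single block. The 36 pairs had Pearson correlations of log2 CPM between -0.46 and 0.96, with a median of 0.75, the highest for P2ry12 with Olfml3. In the 24 cultured libraries the median was 0.56, with 7 pairs below 0 and 6 above 0.8. P2ry13 had correlations of 0.02 or less with each of the other 8 over 30 libraries, the lowest with Gpr34. Fcrls, at 0.53 to 0.74 with the members other than P2ry13 over 30 libraries, had -0.44 with P2ry12 and -0.36 with Olfml3 in the cultured libraries. The points share 10 groups of 3 libraries, so these values describe groups more than cells.

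**Figure D5:**
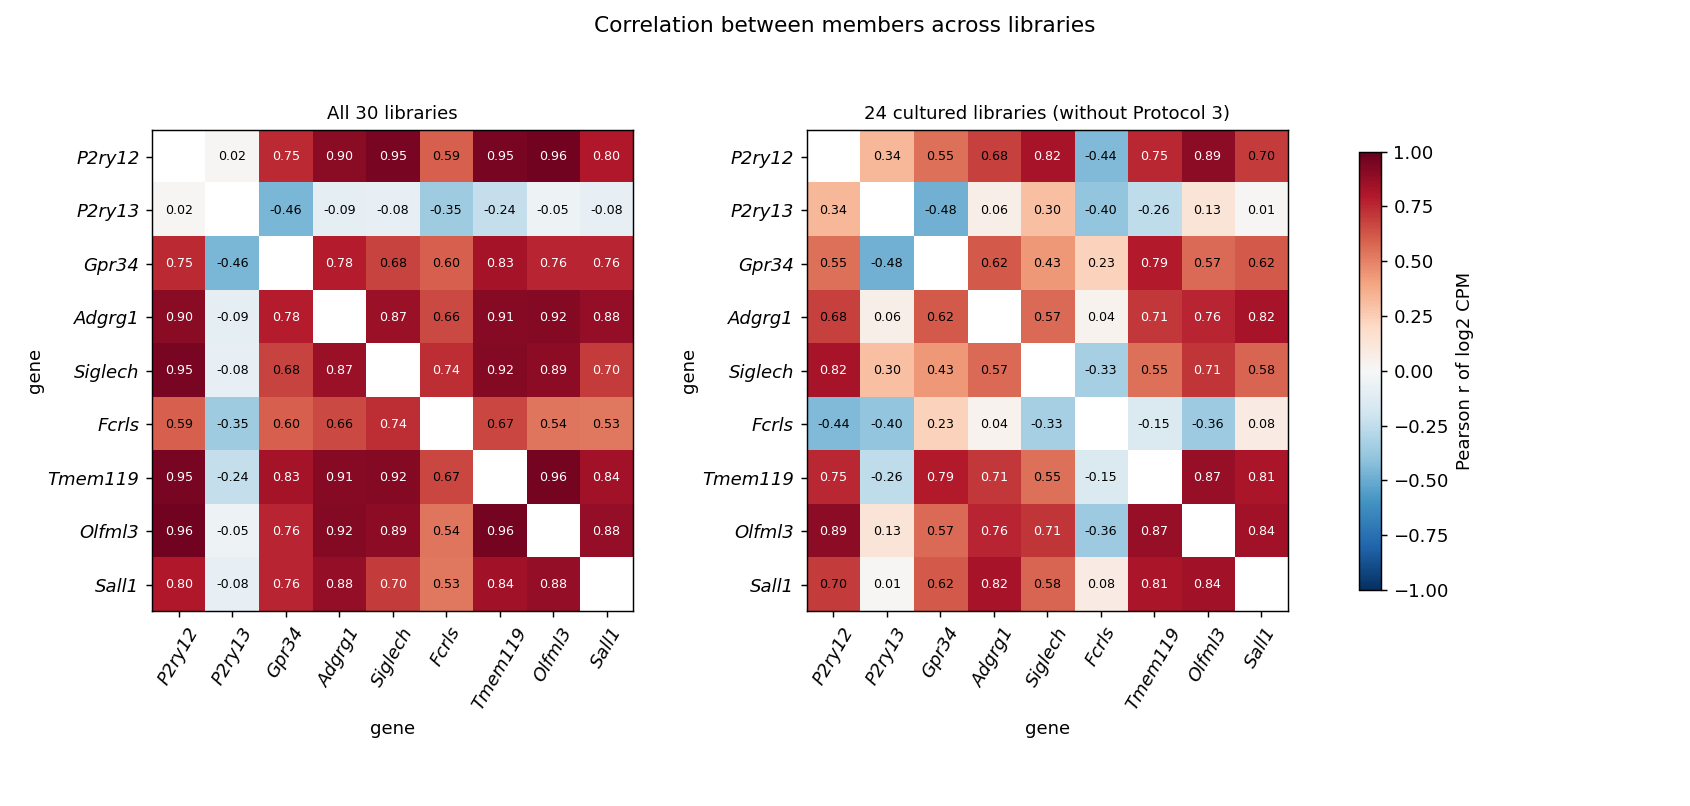
Pearson correlation of log2 CPM for each pair of the 9 genes over all 30 libraries (left) and over the 24 cultured libraries (right), on a colour scale from -1 to 1. P2ry13 runs from -0.46 to 0.02 with the other genes on the left, and Fcrls is below 0 with 5 genes on the right and with P2ry13 alone on the left.

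Among 14303 other protein-coding genes, those with the most similar pattern over the 30 libraries were named by the 3 highest correlations for each member. For P2ry12 they were Capn3, Fam107a and Kl (r of 0.98, 0.97 and 0.97), and for P2ry13 I830077J02Rik, Fst and Thbs4 (0.88, 0.88 and 0.87). Gpr34 was closest to Mef2c, Adamts1 and Hpgds (0.98, 0.97 and 0.96), of which Mef2c encodes a transcription factor known in microglia. Siglech was closest to Ltf, Nr4a1 and Kansl1 (0.99, 0.99 and 0.98), and Ltf, lactoferrin, is a neutrophil granule protein, a cell type whose markers were highest in Protocol 3. Olfml3 was closest to Adgrf5, Robo4 and Ptprb (all 0.99), genes known from endothelial cells. Tmem119 was closest to Klhl7, Rhob and Ets1, Sall1 to Sgce, St5 and Asb2, Fcrls to Atp6v1a, Fyn and Asns, and Adgrg1 to Gabbr1, Blnk and Nbl1.

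A wider list of 44 other genes of the resting microglial program was lower in most but not all places. In Protocol 1 against Protocol 3 Controls, 35 of 44 were lower and 5 higher, with a median log2 fold change of -1.30, and Protocol 2 had 24 lower and 17 higher with a median of -1.11. Of all genes, 42.9% were lower and 37.3% higher in Protocol 1, and 37.2% and 40.1% in Protocol 2. Pmepa1 (-4.96, adjusted p = 8.37e-21), Nav3 (-7.11) and Tgfbr1 (-3.68) were the most certain in Protocol 1, and the protease gene Lgmn was not called (-0.14, adjusted p = 0.120). With HMGB1, 18 of 40 tested fell and 7 rose in 1C, 20 of 37 fell and 5 rose in 1A, and 21 of 40 fell and 8 rose in 1B, where 31.6% to 32% of all genes fell and 28.4% to 29.8% rose. Among them was Il6ra, the receptor for IL-6, which fell by 2.94 in 1C (adjusted p = 5.98e-10), 2.01 in 1A and 2.32 in 1B on the log2 scale. In Protocols 2 and 3, 0 of 43 and 0 of 44 were called.

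The TGF-beta pathway, on which several of the 9 genes depend in the brain, had 22 listed genes. Set against Protocol 3 Controls, Protocol 1 had 18 of these below and 1 above (median -1.94), among them the receptor Tgfbr1 and the signal transducer Smad3 (-3.92, adjusted p = 6.97e-20), while the receptor Tgfbr2 was not called (0.08, adjusted p = 0.329). In Protocol 2, 14 were lower and 6 higher (median -0.93), with Tgfbr1 at -3.77 (adjusted p = 3.46e-17). With HMGB1, 10 of 22 tested rose and 5 fell in 1C (median 0.23). In 1A 13 of 20 rose and 6 fell (0.37), and in 1B 9 of 20 rose and 5 fell (0.22). Of all genes, 28.4% to 29.8% rose and 31.6% to 32% fell in these protocols. Smad3 fell in 1C (-2.37, adjusted p = 3.63e-07). The inhibitor Skil rose in 1C (2.45), 1A (2.38), 1B (2.27) and Protocol 2 (0.64, adjusted p = 3.60e-04). Of all genes, 42.9% were lower in Protocol 1 and 37.2% in Protocol 2. Between the neonatal Controls, 9 of 22 were higher and 0 lower in 1C than in 1A, Smad3 among the higher (0.92, adjusted p = 1.10e-05). There 13.1% of all genes were higher and 7.91% lower. In 1A, with GM-CSF, 8 were lower and 2 higher than in 1B, with Smad3 lower (-1.08, adjusted p = 5.48e-07). Here 18.2% of all genes were lower and 12.6% higher.

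Of 20 listed transcription factors of microglia, 19 had enough counts for the Control fit. In Protocol 1 against Protocol 3, 13 were lower and 4 higher, led by Runx1 (-2.82, adjusted p = 1.44e-20). In Protocol 2 13 were lower and 4 higher, again with Runx1 first (-3.38, adjusted p = 1.97e-18). Of all genes in these Control comparisons, 42.9% were lower and 37.3% higher in Protocol 1, and 37.2% and 40.1% in Protocol 2. With HMGB1, Ikzf1 rose in 1C (3.17, adjusted p = 1.14e-09), 1A (2.26), 1B (2.46) and Protocol 2 (0.37, adjusted p = 0.0279). A list of 20 genes of disease-associated microglia ran the other way from the 9 members: against Protocol 3 Controls, Protocol 1 had 14 above and 5 below (median 1.62), among them Gpnmb (8.63, adjusted p = 1.16e-20), and 15 were higher and 4 lower in Protocol 2 (median 1.53).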

How the data were processed

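Bulk RNA-seq of 30 libraries was analysed, 3 in each of 10 groups. The deposited values are read counts per gene, which the authors made with HISAT2 2.0.5 and featureCounts 1.5.0-p3 according to the submitters' processing notes. The strand setting is not given in the sources used here. Coordinates in the table equal those of GENCODE M21 (GRCm38) for 98.3% of 54495 shared genes. The table has 54532 genes, and libraries held 14151983 to 28564757 counts, so that genes under about 1 CPM rest on few reads.

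Counts were scaled by TMM, filtered by filterByExpr and tested by the two-sided quasi-likelihood test of edgeR 4.0.16 (R 4.3.3, limma 3.58.1, statmod 1.5.0, robust fit), and a gene was called at an adjusted p below 0.05 over all genes tested. Each HMGB1 response was fitted on its 6 libraries, the Control contrasts on 15 Controls, the HMGB1-treated contrasts on 15 HMGB1 libraries, and the response differences on all 30. Protocol 1 was the mean of 1C, 1A and 1B with equal weight. Standard errors were derived from the fold change and the F statistic, and the 95% intervals built on them are approximate. For large fold changes on few counts, these standard errors can be smaller than counting error alone. Intervals on sums of counts cover counting error only. The p-values rest on the spread between the 3 libraries within groups. This spread is pooled over all groups of a fit and drawn toward that of other genes. The procedure was tested on simulated data. Correlations used log2 CPM with a prior count of 2.

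The 9 members and all gene lists were chosen with earlier results of these data known. All 9 members are given for each comparison described, by value or, where not called, by range. Of another list, up to 3 called genes with the smallest adjusted p and the 1 uncalled gene with the highest mean CPM could be named, and for similar genes the 3 highest correlations among protein-coding genes. The tables of glial markers, overlapping genes and sparse members were added after values were seen. Alternatives were DESeq2 1.42.0 (size factors and Wald test), no filter on low counts, a minimum fold, leaving out 391 mitochondrial and rRNA-type genes, a replicate block, leaving out each library, other sets of libraries in the fit, and 1A alone as Protocol 1.

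Whether replicate numbers pair HMGB1 and Control libraries was checked by the correlation of their deviations from the group means. In 1B, 2 and 3 all pairs were over 0.1 (0.176 to 0.409, 0.280 to 0.429 and 0.191 to 0.283), and in 1C and 1A not all were (0.0917 to 0.145 and 0.0294 to 0.107). In every protocol, 1C and 1A included, all 3 HMGB1 libraries correlated best with the Control of the same number. The main fits used no block for this pairing, and the replicate block was run as an alternative only.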

Additional observations from a re-analysis of the deposited data

Results flagged for a closer look

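The HMGB1 response of 3 genes differed between protocols by a test of the difference itself, with edgeR adjusted p-values as given in the report. P2ry13 had a response larger by 1.75 on the log2 scale in Protocol 1 than in Protocol 3, by 1.80 than in Protocol 2, and by 2.51 in 1A than in 1B. The Gpr34 response differed by -2.19 between Protocol 1 and Protocol 3 and by -1.34 between Protocol 1 and Protocol 2. The Tmem119 response differed by -1.28 between Protocol 1 and Protocol 3 and by -1.43 between Protocol 1 and Protocol 2. The Protocol 1 libraries are shared between these tests.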

How the results depend on the processing

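Of 2475 values of single members under alternatives, 2438 kept their side of the threshold, 17 lost a call and 20 gained one, and 0 of the 138 values that changed sign were called in either fit. Counts of members called that moved by over 1.5 times were these. For HMGB1 in 1B the count of 4 was 2 with a minimum absolute log2 fold change of 1 and 2 to 3 with single libraries left out. For HMGB1 in Protocol 2 the count of 1 was 0 with the minimum fold and 0 to 1 with single libraries left out. For 1A minus 1B Controls the count of 4 was 7 with no filter on low counts and 4 to 7 with single libraries left out. For the response difference of Protocol 2 and 3 the count of 0 was 1 with no filter, where Gpr34 passed. For the response difference of 1A and 1B the count of 1 was 2 by DESeq2, 2 with no filter, 2 with only the groups compared and 1 to 3 with single libraries left out, and 2 with the replicate block, where P2ry12 passed. Smaller moves were 9 to 6 with the minimum fold in Protocol 2 minus 3 Controls, 9 to 7 in the HMGB1-treated libraries, 9 to 8 in Protocol 1 minus 3 and 1 minus 2 Controls, 3 to 2 in 1C minus 1A Controls, 4 to 5 by DESeq2 and with the replicate block in 1A minus 1B Controls, 4 to 3 by DESeq2 for HMGB1 in 1B, and 3 to 4 with no filter or the replicate block in the response differences of Protocol 1 with 3 and with 2. The replicate block left the count of members called in the 5 HMGB1 responses at 3 in 1C, 3 in 1A, 4 in 1B, 1 in Protocol 2 and 0 in Protocol 3. The cause of these changes was not tested. DESeq2 size factors moved the HMGB1-treated contrasts of Protocols 1 and 2 against Protocol 3 by a median of -0.18 and -0.13 over the members and turned no direction. Siglech in the neonatal cultures and Adgrg1 in 1A had too few counts for an HMGB1 response to be tested.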
